A study of Mus musculus with 7 samples.

Results

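Lysosomal enzymes and membrane proteins were followed in the marrow cells of mice infused with serotonin (5-HT) or saline. The set held 35 genes for soluble hydrolases, lipid-transfer proteins and proteins of the lysosomal membrane, out of 19057 genes with a named probe on the array. Its members were chosen by gene symbol, and each was read from the brightest of its probes. Every member was measured, and 29 of the 35 reached a mean log2 signal of 7.5 over the 7 arrays, the limit at which genes were tested. In all, 5428 genes reached that limit. The comparison asks whether raised plasma 5-HT goes with a different level of lysosomal transcripts in megakaryocytes (MKs), the marrow cells that shed platelets.

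The tested mice received 5-HT for 24 h from an osmotic minipump under the skin, filled at 25.8 mM and delivering 1.66 µg/kg/h. The control mice received saline. All animals were male C57BL/6J mice, 10 to 12 weeks old, with no transgene or deletion in either group, and the infusion reached the whole animal rather than the MKs alone. Femoral marrow of 3 to 4 mice was pooled for each sample, passed over a Percoll gradient and selected on magnetic beads through CD41, the platelet glycoprotein IIb. RNA of 4 5-HT pools and 3 saline pools was hybridized to Illumina mouse BeadChips, 1 array for each pool. Another saline pool, set aside by the authors as an outlier, was not analysed here. The labels do not say how mice were allotted to pools, so the p-values below measure the spread between these pools only.

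Lysosomes are acidic organelles in which hydrolases break down proteins, glycans and lipids, while membrane proteins keep the acid and the enzymes inside and carry the products out. Most of the soluble enzymes receive a mannose-6-phosphate tag in the Golgi and are sorted by receptors for that tag. In platelets and MKs, lysosomes form a class of secretory granule of their own, whose glycosidases and proteases are released on strong activation, and tetraspanin CD63 and LAMP proteins of lysosomes and dense granules then appear at the cell surface. Neutrophils, eosinophils and macrophages are also rich in lysosomal or lysosome-like granules. In cultured cells many lysosomal genes carry a palindromic E-box, CACGTG, near the start site, which factors of the MiT family such as TFEB can bind.

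RefSeq promoter windows of the GRCm38.p6 build, 250 bases before to 50 bases after the start site, were listed for 30 of the 35 members. Npc1, Galns, Ctsb, Asah1 and Ctsh had none listed. CACGTG, which reads the same on both strands, stood in a window of 11 of the 30 members (36.7% of genes), in 577 of the 4508 tested genes with a window (12.8%) and in 2187 of all 27025 genes with a window (8.09%). The longer palindrome TCACGTGA, which contains it, stood in 5 members (16.7%), against 2.53% of the tested genes and 1.12% of all genes. With a G before and a C after that 8-base form, the letters stood in 1 member, Cln3 (3.33%), against 0.865% of the tested genes and 0.37% of all genes. The member shares also count members below the limit on mean signal, so they are not like for like with those of the tested genes. Among members with CACGTG these were Ctsd, Ctsl, Gla and Mcoln1, and all but Ctsl held TCACGTGA. Of the tested members with a window, 7 held CACGTG and 17 did not. A match is a description of the letters in the window and not evidence of a bound site. The stretches below are shown because they hold the matches of the members with more than 1 site (for Ctsd and Ctsa only 1 of 2) and of Glb1, which is among the 3 members past the unadjusted thresholds below. Each is written 5′ to 3′ on the strand of the gene, with up to 20 bases on each side, and the capitals mark TCACGTGA where present and CACGTG otherwise.
Lamp1, chr8:13159080-13159160, plus strand: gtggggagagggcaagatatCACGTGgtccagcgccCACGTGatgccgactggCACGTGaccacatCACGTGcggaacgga
Cln3, chr7:126583331-126583405, minus strand: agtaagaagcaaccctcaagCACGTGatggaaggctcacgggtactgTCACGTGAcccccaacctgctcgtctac
Mcoln1, chr8:3500428-3500500, plus strand: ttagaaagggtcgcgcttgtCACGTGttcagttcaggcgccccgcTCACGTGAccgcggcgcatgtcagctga
Gla, chrX:134601173-134601253, minus strand: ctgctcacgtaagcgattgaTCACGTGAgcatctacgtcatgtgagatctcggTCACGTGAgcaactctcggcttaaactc
Ctsd, chr7:142387899-142387946, minus strand: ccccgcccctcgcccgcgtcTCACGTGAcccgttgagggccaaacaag
Glb1, chr9:114401010-114401055, plus strand: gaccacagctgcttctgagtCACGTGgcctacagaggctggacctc
Ctsa, chr2:164833740-164833772, plus strand: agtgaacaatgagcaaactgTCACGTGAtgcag
Lamp1 held 4 sites within 81 bases before its start, the most of any member. Gla held 2 copies of the 8-base form, although its probe was below the limit on mean signal in this isolate. Of the tested members, the 7 with CACGTG had a median log2 fold change of 0.46 (range -0.11 to 0.90), and the 17 with a window and no CACGTG had a median of 0.48 (range 0.18 to 0.92), so the ranges of both sets overlapped widely. The first set comprised Ctsa, Lamp1, Gaa, Glb1, Arsa, Cln3 and Lgmn.

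The deposited signals had been shifted to a common median of 6.68 over all 45281 probes, which left the arrays with unequal spread. The SD over all probes ran between 0.96 and 1.33, and the median of the tested genes was 8.28 to 9.43 in 5-HT samples and 8.15 to 8.99 in saline samples. Over all tested genes the median log2 fold change, 5-HT minus saline, was 0.42, and it was 0.08 after quantile normalization, which gives every array the same distribution of signals. For this reason the members are read against all tested genes and with both normalizations. The lowest signal of an array was 6.21 to 6.40, so that differences of dim genes are compressed towards 0. Any 2 arrays correlated at 0.884 to 0.986 over the tested genes, and no 2 arrays were identical.

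An adjusted p under 0.05 (limma, Benjamini-Hochberg over 5428 genes) was reached by 0 of the 29 tested lysosomal genes and by 0% of all tested genes. The members' adjusted p ranged from 0.563 to 0.892. At an unadjusted p under 0.05 there were 3 members, Galns, Man2b1 and Glb1, beside 5.73% of all tested genes. All 3 were higher in 5-HT samples, by more than 1.5-fold. The thresholds of 1.5-fold and of p together were passed upwards by 5.71% of all tested genes and downwards by 0.0184%. In a different set of 3 members, Galns, Arsb and Neu1, the 5-HT samples were all higher than the saline samples, a pattern of 6.28% of all tested genes. Each of these counts rests on 3 genes.

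The log2 fold change was above 0 in 28 of the 29 members, and in 91.4% of all tested genes. The members' median was 0.48, with an interquartile range of 0.36 to 0.77, beside 0.42 for all tested genes. Against that array-wide median, 18 of the 29 members lay above and the others below. After quantile normalization the log2 fold change was above 0 in 20 members and in 62.0% of all tested genes, and the members' median was 0.14 beside 0.08. In bulk samples of this kind, fewer cells of a type and less RNA per cell cannot be told apart.

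**Figure D1:**
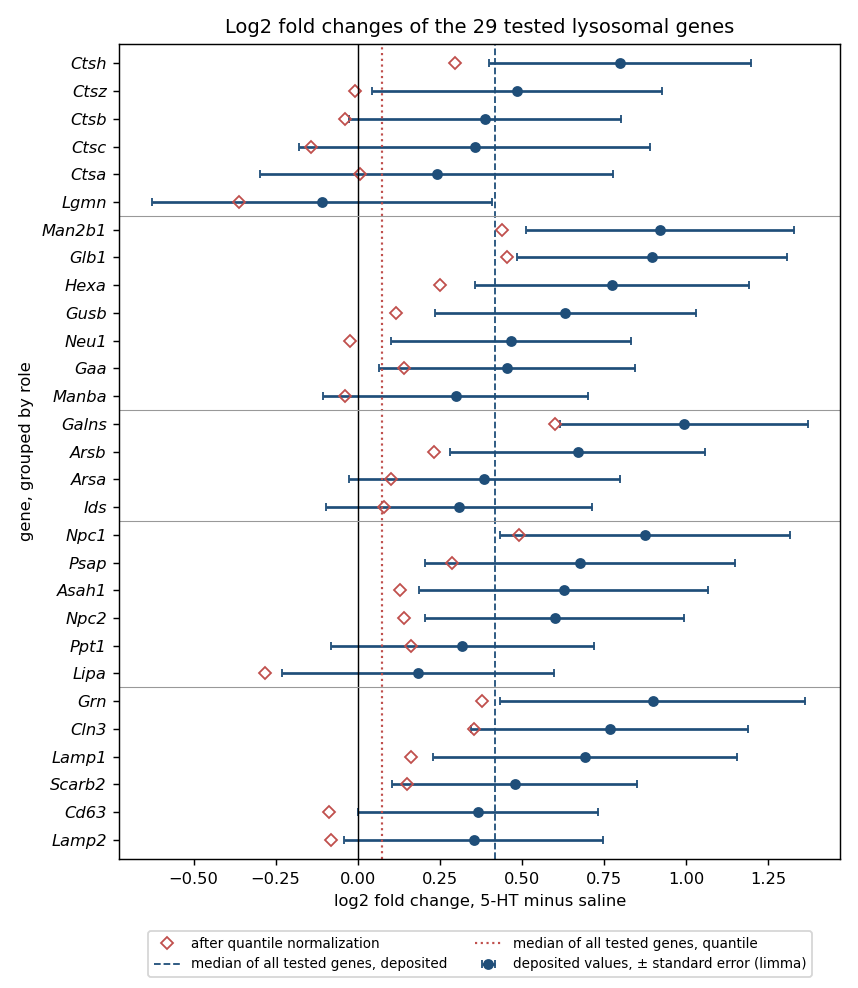
Log2 fold change (5-HT minus saline) of the 29 tested lysosomal genes, grouped by role. Filled circles with bars are limma estimates ± standard error on the deposited values, and open diamonds are the values after quantile normalization. The dashed line marks the median of all 5428 tested genes on the deposited values (0.42), the dotted line the same after quantile normalization (0.08). Lgmn alone lies below 0 on the deposited values.

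The sulfatases remove sulfate groups from glycosaminoglycans and sulfolipids, and all 4 members were tested, with a median log2 fold change of 0.53 (0.17 after quantile normalization). Galns, which removes the 6-sulfate of keratan sulfate and chondroitin sulfate, had log2 signals of 9.45, 8.56, 9.60 and 9.16 in 5-HT samples and 8.29, 7.96 and 8.35 in saline samples. The groups were separate, with 5-HT replicate 2 the nearest to the saline samples. Galns averaged 9.19 ± 0.46 in 5-HT samples and 8.20 ± 0.21 in saline samples (SD, n = 4 and n = 3). This is a log2 fold change of 0.99 (limma SE 0.38), or 1.99-fold with a 95% interval of 1.16 to 3.42, at an unadjusted p of 0.0148 and an adjusted p of 0.563. It was the largest fold change among the members. After quantile normalization the log2 fold change of Galns was 0.60 (unadjusted p = 0.0259 in limma), which made it the only member still past both unadjusted thresholds, passed then by 1.2% of all tested genes upwards and 1.69% downwards. The unadjusted p of Galns was 0.0622 without 5-HT replicate 3 and 0.0810 without saline replicate 2. Its second probe, dimmer but above the limit, also had all 5-HT samples above all saline samples and a log2 fold change of 0.71.

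Arsb, the 4-sulfatase of dermatan and chondroitin sulfate, had log2 signals of 10.65, 9.50, 9.57 and 9.60 in 5-HT samples and 9.40, 8.83 and 9.25 in saline samples. The groups did not overlap, but 3 of the 5-HT samples lay close to saline replicate 1, and 5-HT replicate 1 stood apart from its group. The log2 fold change was 0.67 (SE 0.39; adjusted p = 0.563 in limma). Arsa, the sulfatase of sulfatide, and Ids, which acts on the iduronate sulfates of dermatan and heparan sulfate, had log2 fold changes of 0.39 (SE 0.41) and 0.31 (SE 0.40). In both genes the groups overlapped.

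The glycosidases trim sugars from glycoproteins, glycolipids and glycogen. Of 9 members, 7 were tested, with a median log2 fold change of 0.63 (0.14 after quantile normalization). Past both unadjusted thresholds upwards were 2 genes, beside 5.71% of all tested genes. Man2b1, the acid alpha-mannosidase of N-glycan breakdown, had log2 signals of 12.58, 11.26, 12.49 and 11.75 in 5-HT samples and 11.67, 10.64 and 10.99 in saline samples. The groups overlapped through 5-HT replicate 2, which lay below saline replicate 1. Man2b1 averaged 12.02 ± 0.63 in 5-HT samples and 11.10 ± 0.52 in saline samples (SD, n = 4 and n = 3). Man2b1 thus had a log2 fold change of 0.92 (SE 0.41; unadjusted p = 0.0341 in limma), 1.89-fold with a 95% interval of 1.05 to 3.40. Its other bright probe gave 1.10, and the value after quantile normalization was 0.44.

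Glb1, the acid beta-galactosidase that cleaves ganglioside GM1 and keratan sulfate, had log2 signals of 10.38, 8.87, 10.05 and 10.19 in 5-HT samples and 9.45, 8.53 and 8.95 in saline samples. Here too a single 5-HT sample, replicate 2, fell among the saline values, and the other 3 lay above them all. Glb1 averaged 9.87 ± 0.68 in 5-HT samples and 8.98 ± 0.46 in saline samples (SD, n = 4 and n = 3). Glb1 thus had a log2 fold change of 0.90 (SE 0.41; unadjusted p = 0.0397 in limma), 1.86-fold with a 95% interval of 1.03 to 3.35. After quantile normalization it was 0.46 (unadjusted p = 0.0401), below the fold change of 1.5. The call of Man2b1 was lost on leaving out 5-HT replicate 1 (unadjusted p = 0.101), 5-HT replicate 3 (0.107), saline replicate 2 (0.168) or saline replicate 3 (0.0950). The call of Glb1 was lost without 5-HT replicate 1 (0.113), 5-HT replicate 3 (0.0823), 5-HT replicate 4 (0.0992), saline replicate 2 (0.179) or saline replicate 3 (0.0885).

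Neu1, the lysosomal sialidase, had log2 signals of 11.05, 10.56, 11.08 and 10.50 in 5-HT samples and 10.45, 10.15 and 10.39 in saline samples. The groups were separate, but the lowest 5-HT sample was close to the highest saline sample. The log2 fold change was 0.47 (SE 0.37; adjusted p = 0.564 in limma) and lay at -0.02 after quantile normalization. Hexa, the alpha subunit of beta-hexosaminidase A, had a log2 fold change of 0.77 (SE 0.42), Gusb, the beta-glucuronidase, 0.63 (SE 0.40), Gaa, the acid alpha-glucosidase of glycogen, 0.46 (SE 0.39), and Manba, the beta-mannosidase, 0.30 (SE 0.40). In each of these the highest saline sample, replicate 1, lay above at least 1 of the 5-HT samples. Idua and Gla were below the limit.

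**Figure D2:**
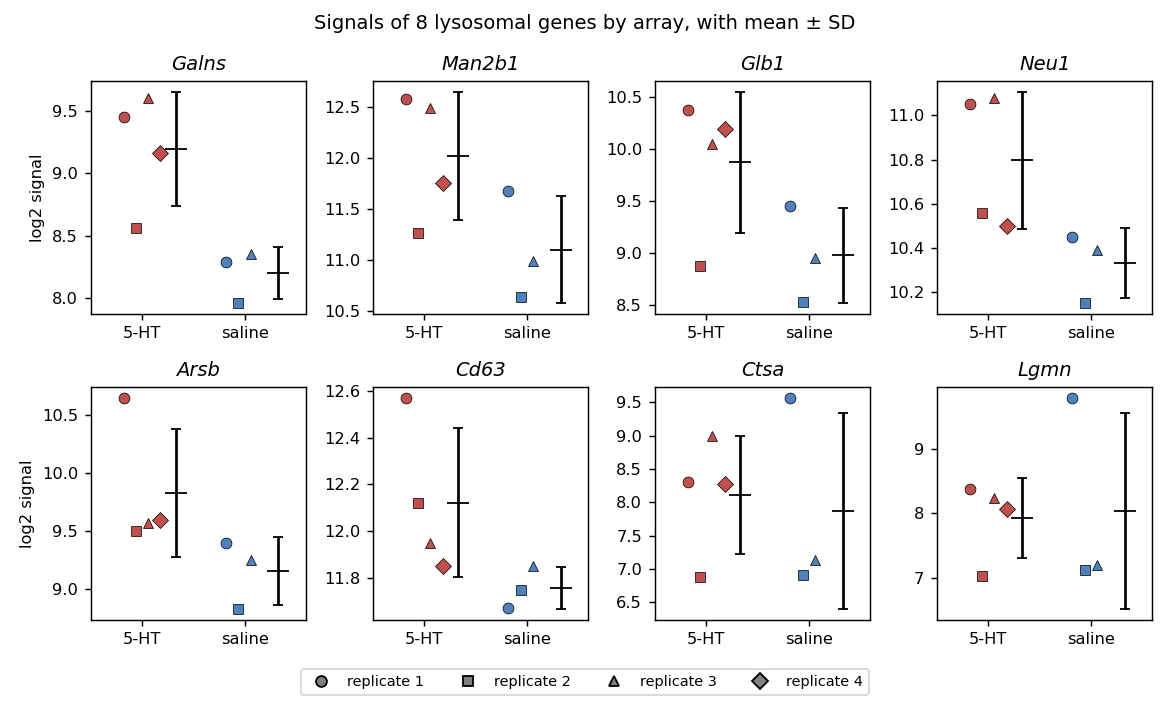
Log2 signal of 8 lysosomal genes in each array, 5-HT samples in red and saline samples in blue, with the mean and SD of each group beside the points and a symbol for each replicate number. The groups are separate for Galns, Neu1 and Arsb, touch at 11.85 for Cd63, and overlap for the other genes, and saline replicate 1 is the highest of all 7 arrays for Ctsa (9.57) and Lgmn (9.80).

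Proteins that hydrolyse or move lipids comprised 6 members, all tested, with a median log2 fold change of 0.61 (0.15 after quantile normalization) and none past the unadjusted thresholds. Npc1, the membrane protein that passes cholesterol out of the lysosome, had log2 signals of 9.77, 8.14, 9.77 and 9.02 in 5-HT samples and 9.14, 7.85 and 7.91 in saline samples. Saline replicate 1 lay above 2 of the 5-HT samples. Its log2 fold change was 0.88 (SE 0.44; unadjusted p = 0.0592 in limma), and its 3 probes at the limit gave 0.48 to 0.88. Npc2, its soluble partner that hands over cholesterol, had log2 signals of 11.02, 9.60, 10.08 and 9.86 in 5-HT samples and 9.80, 9.36 and 9.46 in saline samples. Only 5-HT replicate 2 fell within the saline range, and the log2 fold change of Npc2 was 0.60 (SE 0.39).

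Psap, the precursor of the saposins that present lipids to their hydrolases, had log2 signals of 13.44, 11.42, 13.22 and 12.47 in 5-HT samples and 12.94, 11.31 and 11.63 in saline samples. The groups overlapped widely, and the log2 fold change was 0.68 (SE 0.47; adjusted p = 0.563 in limma). Asah1, the acid ceramidase, had a log2 fold change of 0.63 (SE 0.44) and Ppt1, the thioesterase that strips palmitate from proteins, 0.32 (SE 0.40). Lipa, the acid lipase of cholesteryl esters and triglycerides, had log2 signals of 10.69, 8.94, 9.95 and 9.93 in 5-HT samples and 10.16, 9.35 and 9.57 in saline samples. Its lowest value was in a 5-HT sample, and its log2 fold change of 0.18 (SE 0.41) became -0.28 after quantile normalization.

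Of the 7 genes for membrane proteins and for progranulin, a secreted and lysosomal glycoprotein, 6 were tested, with a median log2 fold change of 0.59 (0.16 after quantile normalization) and none past the unadjusted thresholds. Grn, which encodes progranulin, had log2 signals of 11.82, 10.23, 11.85 and 10.92 in 5-HT samples and 11.43, 9.69 and 9.80 in saline samples. Saline replicate 1 stood above 2 of the 5-HT samples, far from the other saline samples. The log2 fold change was 0.90 (SE 0.46; unadjusted p = 0.0653 in limma). Lamp1, one of the main glycoproteins that line the lysosomal membrane, had log2 signals of 12.49, 10.84, 11.95 and 11.81 in 5-HT samples and 12.30, 10.46 and 10.48 in saline samples. The same saline sample was the second highest of all arrays, and the log2 fold change was 0.69 (SE 0.46).

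Lamp2, the other such glycoprotein and a carrier for chaperone-mediated autophagy, had log2 signals of 12.76, 11.45, 11.46 and 11.66 in 5-HT samples and 11.60, 11.21 and 11.63 in saline samples. Apart from 5-HT replicate 1 the values of both groups lay together, and the log2 fold change was 0.35 (SE 0.40). All 5 of its probes at the limit, several of which match the same transcript record, had positive log2 fold changes of 0.21 to 0.50. The median of all tested genes was 0.42. Cd63, the tetraspanin of lysosomes and platelet dense granules, had log2 signals of 12.57, 12.12, 11.95 and 11.85 in 5-HT samples and 11.67, 11.75 and 11.85 in saline samples. The lowest 5-HT sample and the highest saline sample had the same value. Cd63 had a log2 fold change of 0.37 (SE 0.36), which was -0.09 after quantile normalization. Its other probes at the limit gave 0.15 and 0.086. In the brighter of these, saline replicate 2 (11.03) lay above every 5-HT sample. Cln3, a membrane protein lost in juvenile Batten disease, had a log2 fold change of 0.77 (SE 0.42), and Scarb2, the receptor that brings glucocerebrosidase to lysosomes, 0.48 (SE 0.37). Saline replicate 1 was above 3 of the 5-HT samples for Cln3 and above 2 for Scarb2.

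The cathepsins and other peptidases had the smallest median of the 5 roles, 0.37 over 6 tested genes of 9, and it was -0.02 after quantile normalization. None passed the unadjusted thresholds and none had separate groups. Ctsb, a cysteine protease, had log2 signals of 13.49, 12.24, 13.18 and 12.80 in 5-HT samples and 13.36, 11.95 and 12.31 in saline samples. Both groups spanned nearly the same range, and the log2 fold change was 0.39 (SE 0.42). Ctsh, an aminopeptidase, had log2 signals of 11.76, 10.67, 11.26 and 11.08 in 5-HT samples and 11.12, 10.09 and 9.97 in saline samples. Its log2 fold change of 0.80 (SE 0.40; unadjusted p = 0.0569 in limma) was repeated by a second probe at 0.81. Ctsz, a carboxypeptidase, had a log2 fold change of 0.48 (SE 0.44).

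Ctsc, the dipeptidyl peptidase that activates the serine proteases of neutrophil and mast cell granules, had log2 signals of 11.29, 8.73, 10.09 and 9.98 in 5-HT samples and 11.15, 8.80 and 9.05 in saline samples. The values within each group differed by more than 2 on the log2 scale, and the log2 fold change was 0.36 (SE 0.54). Its 3 probes did not share a sign, with the other probes at -0.29 and 0.15. Ctsa, the serine carboxypeptidase that protects Neu1 and Glb1 in a complex, had log2 signals of 8.31, 6.87, 8.99 and 8.27 in 5-HT samples and 9.57, 6.90 and 7.14 in saline samples. Saline replicate 1 was the highest of all arrays, and the log2 fold change was 0.24 (SE 0.54). Lgmn, the asparaginyl endopeptidase that processes cathepsins, had log2 signals of 8.38, 7.02, 8.24 and 8.07 in 5-HT samples and 9.80, 7.12 and 7.19 in saline samples. It was the only tested member with a negative log2 fold change, -0.11 (SE 0.52; adjusted p = 0.892 in limma). Without saline replicate 1 it was 0.77, and without 5-HT replicate 2 it was 0.19. Lgmn averaged 7.93 ± 0.62 in 5-HT samples and 8.04 ± 1.53 in saline samples (SD, n = 4 and n = 3).

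The 6 members below the limit were Ctsd, the main aspartic protease, with a mean log2 signal of 7.35, Tpp1, a tripeptidyl peptidase, at 7.30, Idua, the alpha-iduronidase, at 7.18, Mcoln1, a calcium channel, at 6.94, Ctsl, a cysteine protease, at 6.74, and Gla, the alpha-galactosidase A, at 6.72. Their log2 fold changes, not tested, were 0.31 for Ctsd, 0.11 for Tpp1, 0.28 for Idua, 0.15 for Mcoln1, -0.06 for Ctsl and -0.11 for Gla, and the groups overlapped in all 6. Over all 81 probes of the 35 genes, 47 probes of 29 genes were at the limit, so that some genes count more than once. Of these probes 45 had a positive log2 fold change, beside 91.4% of all tested genes, each read from its brightest probe. The exceptions were the second Ctsc probe and the Lgmn probe. A signal so near the lowest of the array does not show how much of a transcript was present.

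The members also differed from array to array within each group. Set against each gene's own mean over 7 arrays, the median member was at 0.89, -0.40, 0.37 and 0.13 in 5-HT replicates 1 to 4 and at 0.42, -0.81 and -0.54 in saline replicates 1 to 3. The same median over all tested genes was 0.64, -0.39, 0.19 and 0.25 in 5-HT replicates 1 to 4 and 0.19, -0.54 and -0.37 in saline replicates 1 to 3. Thus 5-HT replicate 2 lay with the 2 low saline samples and saline replicate 1 with the other 5-HT samples, for the members as for the array as a whole. The lowest 5-HT sample was replicate 2 in 26 of 29 members (79.5% of all tested genes), the highest saline sample was replicate 1 in 26 (80.8%), and 5-HT replicate 2 lay below saline replicate 1 in 25 (82.7%). Saline replicate 1 was the highest of all 7 arrays in Lgmn, Ctsa and Ppt1, against 8.53% of all tested genes. Without saline replicate 1, 15 of the 29 members were past both unadjusted thresholds, beside 27.5% of all tested genes, and without 5-HT replicate 2 there were 11, beside 31.1% of all tested genes. In neither case did any member reach the adjusted threshold.

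**Figure D3:**
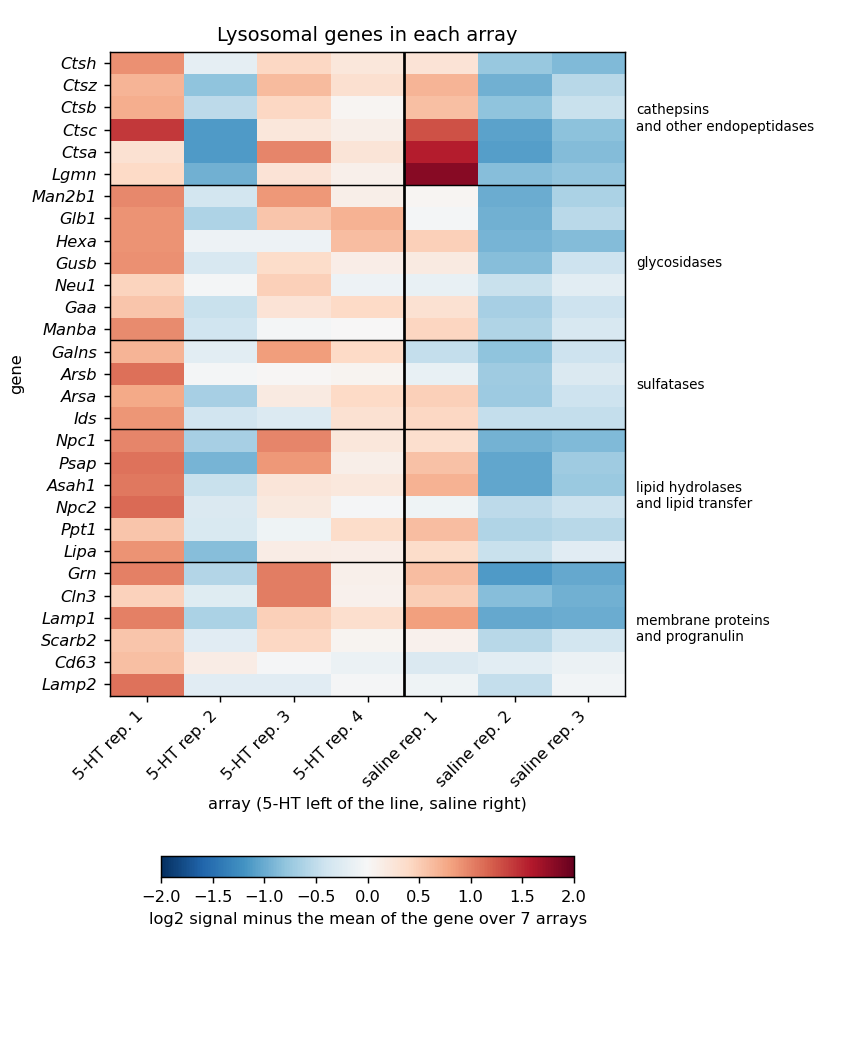
Log2 signal of each tested lysosomal gene in each array, minus the mean of that gene over 7 arrays, with 5-HT samples left of the line and saline samples right of it. Red is above and blue below the mean of the gene. 5-HT replicate 2 and saline replicates 2 and 3 are low for most genes, and saline replicate 1 is high for Lgmn, Ctsa and Ctsc.

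Markers of the cell types that a CD41 isolate can hold were measured beside the members. Of 13 measured MK markers 11 were above the limit. The summed signal over all 13 (the log2 of the sum of linear signals) was 13.65 to 15.81 in 5-HT samples and 13.74 to 15.68 in saline samples. A sum of linear signals weights bright genes such as Pf4, which had a log2 fold change of 0.20 (SE 0.41). The median log2 fold change over the 11 MK markers was 0.78 (0.27 after quantile normalization), above that of the lysosomal genes. Of the 11, 10 were positive, beside 91.4% of all tested genes, and none was past the unadjusted thresholds. For Gp6 the saline mean was below the limit, so that it was tested only through its 5-HT values. Itga2b, which encodes the CD41 protein itself, had log2 signals of 11.90, 9.36, 11.27 and 12.29 in 5-HT samples and 12.15, 9.17 and 8.86 in saline samples, so the 5-HT sample and 2 saline samples that were low in lysosomal genes were also low in the selected marker. Itga2b had a log2 fold change of 1.15 (SE 0.64; unadjusted p = 0.0865 in limma). Itgb3, the partner of Itga2b, was below the limit. Of 15 measured macrophage markers 9 were above the limit, while Cd5l, Mertk, Siglec1, Spic, Cd163 and Timd4 were below it. The summed signal over all 15 was 12.09 to 13.53 in 5-HT samples and 11.85 to 14.25 in saline samples. The 9 above the limit had a median log2 fold change of 0.18 (-0.22 after quantile normalization). C1qb, a complement gene of tissue macrophages, had log2 signals of 10.08, 8.17, 10.90 and 10.86 in 5-HT samples and 11.98, 7.93 and 8.87 in saline samples. It was highest in saline replicate 1, as Lgmn and Ctsa were. Of the other tested macrophage markers, Csf1r, Mrc1, C1qa, C1qc, Vcam1 and Axl were also highest in that array. Adgre1 and Slc40a1 were highest in 5-HT replicate 1 instead.

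All 5 measured markers of neutrophil primary granules were tested, with a summed signal of 16.28 to 16.70 in 5-HT samples and 15.93 to 16.61 in saline samples, and none passed the unadjusted thresholds. Of the 11 genes of later neutrophil granules 3 were past them upwards, Chil1, Cd177 and Mmp9, beside 5.71% of all tested genes. A positive log2 fold change was seen in 8 of the 11, beside 91.4% of all tested genes. Camp (-0.11), S100a9 (-0.0075) and S100a8 (-0.0017) were below 0. For Mmp8 the saline mean was below the limit, so that it was tested only through its 5-HT values. The list summed to 17.60 to 17.88 in 5-HT samples and 17.37 to 17.47 in saline samples. Of 8 measured eosinophil markers 4 were above the limit, and these 4 were past the unadjusted thresholds upwards, beside 5.71% of all tested genes. The summed signal over all 8 was 11.44 to 14.39 in 5-HT samples and 10.42 to 11.23 in saline samples. For Prg3 and Ear6 the saline mean was itself below the limit, so that they were tested only through their 5-HT values, and a count of 4 is in part set by the limit. Of the 4 below it, Epx had a log2 fold change of 1.07, while Ccr3, Siglecf and Il5ra were at -0.045, -0.0017 and 0.015, all not tested. Prg2, the eosinophil major basic protein, had log2 signals of 14.02, 10.72, 10.75 and 12.56 in 5-HT samples and 10.25, 8.86 and 9.49 in saline samples. It was highest in 5-HT replicate 1, the array in which 23 of the 29 members had their highest 5-HT value (70.0% of all tested genes). The part of these cell types in the lysosomal values was not tested.

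**Figure D4:**
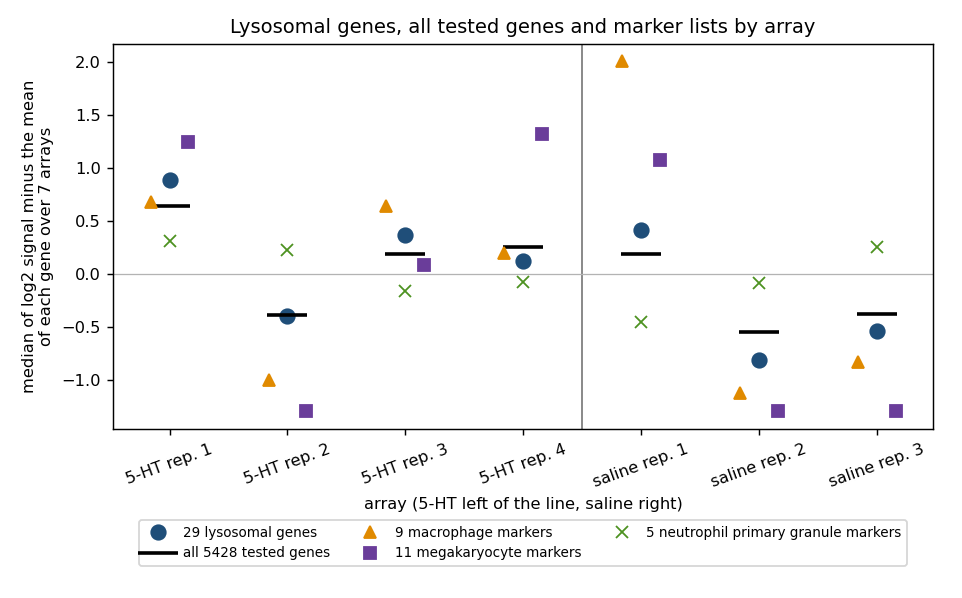
Median of log2 signal minus the mean of each gene over 7 arrays, for the 29 tested lysosomal genes, all 5428 tested genes and 3 marker lists, in each array (5-HT samples left of the line, saline samples right). The lysosomal genes share the sign of all tested genes in every array. The gaps are widest in saline replicate 2 (-0.81 against -0.54) and 5-HT replicate 1 (0.89 against 0.64). The macrophage markers reach 2.01 in saline replicate 1, and the MK markers lie at -1.29 in 5-HT replicate 2 and in saline replicates 2 and 3.

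The other genes of the pathway were taken as whole lists, and none of their tested genes reached the adjusted threshold in limma or, on the deposited values, was past the unadjusted thresholds downwards. Of 15 tested further hydrolases and activators (34 measured), 2 were past both unadjusted thresholds upwards, beside 5.71% of all tested genes. The median log2 fold change was 0.37 (0.02 after quantile normalization). Gm2a, the activator that presents ganglioside GM2 to beta-hexosaminidase A, had log2 signals of 11.68, 9.65, 11.82 and 11.23 in 5-HT samples and 11.13, 9.24 and 9.65 in saline samples. Its log2 fold change was 1.09 (SE 0.50), and that of Hgsnat, the acetyltransferase of heparan sulfate breakdown, was 0.98 (SE 0.43). In both genes 5-HT replicate 2 lay below saline replicate 1, and after quantile normalization neither was past the thresholds (0.60 for Gm2a, unadjusted p = 0.153 in limma, and 0.52 for Hgsnat, 0.0573).

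Of 18 tested membrane proteins outside the set (28 measured), all 18 had a positive log2 fold change, beside 91.4% of all tested genes. For Slc15a4 the saline mean was below the limit, so that it was tested only through its 5-HT values. The median of the list was 0.58 (0.20 after quantile normalization). Past both unadjusted thresholds upwards were 4 genes, beside 5.71% of all tested genes. They were Cln6, a protein of the endoplasmic reticulum that helps lysosomal enzymes leave for the Golgi, at 1.08 (SE 0.40), Slc15a3, a histidine and peptide transporter, at 0.97 (SE 0.46), Tpcn1, an endolysosomal cation channel, at 0.97 (SE 0.44), and Sidt2 at 0.88 (SE 0.41). Cln6 had log2 signals of 10.01, 8.97, 9.84 and 10.26 in 5-HT samples and 9.27, 8.46 and 8.34 in saline samples, overlapping only through 5-HT replicate 2. After quantile normalization Cln6 alone of these was past the thresholds, at 0.65 (unadjusted p = 0.0109 in limma), beside 1.2% of all tested genes upwards. Slc15a3 was then at 0.64 (unadjusted p = 0.0813 in limma), Tpcn1 at 0.50 (0.0784) and Sidt2 at 0.42 (0.0567).

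The 14 tested subunits of the V-ATPase, the pump that acidifies the lysosome, had a median log2 fold change of 0.47 (0.0087 after quantile normalization), and none was past the unadjusted thresholds on the deposited values. Atp6v1a, its catalytic subunit, had log2 signals of 9.53, 8.03, 8.06 and 8.13 in 5-HT samples and 8.86, 9.61 and 9.15 in saline samples. Only 5-HT replicate 1 reached the saline values, and the log2 fold change was -0.77 (SE 0.41; unadjusted p = 0.0753 in limma), opposite in sign to the other 13 subunits. After quantile normalization it was -1.14 (unadjusted p = 0.0121 in limma), past both unadjusted thresholds downwards, beside 1.69% of all tested genes then. Atp6v1b2, a subunit of the same catalytic part, was at 0.69 (SE 0.39). Atp6v1e1 was at 0.68 (SE 0.38), and at 0.23 after quantile normalization. On the deposited values it was the only subunit with every 5-HT sample above every saline sample, beside 6.28% of all tested genes.

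In the list of mannose-6-phosphate tagging and sorting, 16 of 18 measured genes were tested. All had a positive log2 fold change, beside 91.4% of all tested genes. The median was 0.50 (0.09 after quantile normalization), and none was past the unadjusted thresholds. For Gga1 the saline mean was below the limit, so that it was tested only through its 5-HT values. Ap1g1 and Ap1m1, subunits of the AP-1 adaptor that packs receptors and their cargo at the Golgi, were at 0.87 (SE 0.42) and 0.79 (SE 0.40). Of 11 tested genes among MiT factors and the lysosomal mTORC1 machinery (19 measured), the median was 0.33 (0.10 after quantile normalization). In this list 1 gene was past both unadjusted thresholds upwards, beside 5.71% of all tested genes. That gene was Tsc2, a brake on mTORC1, with log2 signals of 10.34, 8.93, 10.41 and 10.18 in 5-HT samples and 9.84, 8.64 and 8.67 in saline samples and a log2 fold change of 0.92 (SE 0.43), which was 0.45 after quantile normalization (unadjusted p = 0.0891 in limma), no longer past them. Tfeb and Mitf were below the limit, and Tfe3 had a log2 fold change of 0.60 (SE 0.41). The saline means of Tfe3 and Mtor were below the limit, so that both were tested only through their 5-HT values. Lamtor1 and Lamtor4, parts of the Ragulator complex that holds mTORC1 at the lysosome, had every 5-HT sample above every saline sample, beside 6.28% of all tested genes. Their log2 fold changes were 0.74 (SE 0.37) and 0.66 (SE 0.38), and 0.30 and 0.27 after quantile normalization.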

How the data were processed

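CD41-selected marrow cells of 4 5-HT and 3 saline pools were each read on 1 array. The authors deposited log2 signals of 45281 probes, log-transformed and median-normalized. Whether background was subtracted is not given in the sources used here. A second deposited table, with 14 value columns under names that match no sample, was not used. The array number limits the precision. The annotation gave 34885 probes 1 symbol, 18 several and 10378 none. Of the named probes, 34807 matched the GRCm38.p6 gene table by ID, and 0 symbols changed. The brightest probe stood for a gene, and genes with a mean log2 signal of at least 7.5 were tested. Different probes were compared only by their fold changes.

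Groups were compared with limma 3.58.1 in R 4.3.3 (lmFit and eBayes, group as the only term, two-sided, 5 residual and 18.9 prior degrees of freedom), with Benjamini-Hochberg adjustment over all tested genes. The unadjusted thresholds, taken from the methods of the study, were 1.5-fold and p under 0.05. Standard errors and intervals are moderated. The script was tested on simulated data. Members, lists, the limit and alternatives were chosen with earlier results of these data known. Members past the unadjusted thresholds, the 3 with the brightest probes, the 3 with the lowest fold changes and those below the limit were named by rule, as were, in each wider list, up to 4 genes past the thresholds or else the 2 of largest fold change in size. Other genes given in full were picked with their values known. Alternatives were normalization by quantiles, by cyclic loess or by the median of tested genes, other limits on mean signal, averaged probes, a robust and trended eBayes, array weights, a block for replicate number, and fits without 1 or 2 arrays. Promoter windows were from RefSeq.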

Additional observations from a re-analysis of the deposited data

Results flagged for a closer look

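Among 35 groups of 4 5-HT samples, 1 for each lysosomal gene, 2 held a sample far from the rest by Dixon's test at the 95% level, a rate that chance alone comes close to. For Lamp2, 5-HT replicate 1 was at 12.76, while the other 5-HT samples lay between 11.45 and 11.66, and the gap was 0.84 of the range. For Arsb, 5-HT replicate 1 was at 10.65, while the other 5-HT samples lay between 9.50 and 9.60, and the gap was 0.91 of the range. The median of all tested genes was also highest in this array (9.43). The part of the array in both values was not tested.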

How the results depend on the processing

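How many members were past both unadjusted thresholds, 3 on the deposited values (5.73% of all tested genes), moved with most alternatives. There was 1 after quantile normalization (2.89% of all tested genes), 0 after cyclic loess (2.65%) and 0 after scaling by the median of tested genes (3.33%). Without a limit on mean signal it was 1 of all 35 members, beside 2.38% of all 19057 genes. It was 1 with averaged probes (6.58% of all tested genes) and 6 with trend and robust in eBayes (6.8%). It was 23 with array weights (61.6%) and 14 with a replicate block (22.9%). On leaving out both 5-HT replicate 2 and saline replicate 1 it was 26 (65.3%). Leaving out each array in turn gave 0 to 15, the last without saline replicate 1 (27.5% of all tested genes) and 11 without 5-HT replicate 2 (31.1%). An adjusted p under 0.05 was passed by 22 members with array weights and by 22 without both arrays, against 0 on the deposited values and 0 to 0 with 1 array left out. Members with every 5-HT sample above every saline sample, 3 on the deposited values, were 1 after quantile normalization, 1 after cyclic loess, 1 after scaling, 27 without both arrays and 3 to 16 with 1 array left out (16 without saline replicate 1, 6 without 5-HT replicate 2). Over all tested genes the groups were separate in that direction in 6.28% on the deposited values, 4.77% after quantile normalization, 2.98% after cyclic loess, 3.15% after scaling, 74.9% without both arrays, 35.8% without saline replicate 1 and 31.1% without 5-HT replicate 2. The members' median log2 fold change was 1.10 without both arrays and 0.35 to 0.91 with 1 left out. Those arrays were chosen for their signals, and the weights were estimated from the same values and stopped short of their tolerance, so neither count is a support.

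Over all tested genes, an adjusted p under 0.05 was passed by 0 genes on the deposited values, 3 with trend and robust, 3281 with array weights, 45 with the replicate block, 3071 without both arrays and 0 to 77 with 1 left out. Past both unadjusted thresholds were 311 genes on the deposited values (310 higher, 1 lower), 157 after quantile normalization (65 higher, 92 lower), 144 after cyclic loess (41 higher, 103 lower), 181 after scaling (52 higher, 129 lower), 3345 with array weights (61.6%), 1241 with the block (22.9%), 3543 without both arrays (65.3%) and 55 to 1690 with 1 left out. The highest counts came without 5-HT replicate 2 (1690) and saline replicate 1 (1490), the lowest without saline replicate 2 (55), and the other 4 lay between 61 and 187. The median of all tested genes was -0.023 after scaling and 0.26 to 0.64 with 1 array left out. The cause of these differences was not tested.

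The sign of the log2 fold change turned in 13 of 29 members under at least 1 alternative. After quantile normalization it was -0.039 for Ctsb, -0.14 for Ctsc, -0.0078 for Ctsz, -0.081 for Lamp2, -0.024 for Neu1, -0.087 for Cd63, -0.038 for Manba and -0.28 for Lipa. After cyclic loess it was -0.091 for Ctsa, -0.075 for Ctsb, -0.14 for Ctsc, -0.015 for Ctsz, -0.13 for Lamp2, -0.033 for Neu1, -0.11 for Cd63, -0.084 for Manba and -0.31 for Lipa. After scaling it was -0.20 for Ctsa, -0.053 for Ctsb, -0.084 for Ctsc, -0.088 for Lamp2, -0.074 for Cd63, -0.14 for Manba, -0.054 for Arsa, -0.13 for Ids, -0.26 for Lipa and -0.12 for Ppt1. Lgmn was at 0.75 with array weights and 1.08 without both arrays. With 1 array left out, or both of those above, Ctsa ranged from -0.25 to 1.50, Ctsc from -0.078 to 1.53, Lipa from -0.087 to 0.73 and Lgmn from -0.57 to 1.08. The other 16 members kept a positive sign in every alternative run.

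The labels do not say whether replicate numbers pair the samples. Deviations of 5-HT and saline samples with the same number correlated at 0.15, 0.68 and -0.25 over the tested genes. Those with different numbers correlated at -0.72 to 0.58. With so few arrays these values cannot settle whether the numbers pair the samples. The block takes 5-HT replicate 4, which has no partner, out of the comparison. Signals close to the lowest of each array limit what can be seen of the 6 members below the limit.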

Other observations

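Proteins that build lysosome-related organelles, among them the dense granules of platelets, were tested for 22 of 31 measured genes. All 22 had a positive log2 fold change, beside 91.4% of all tested genes. The median was 0.50 (0.14 after quantile normalization), beside 0.42 for all tested genes (0.08). Bloc1s1, a subunit of the BLOC-1 complex, was the only gene of the list past both unadjusted thresholds (5.71% of all tested genes upwards). It had log2 signals of 10.23, 9.19, 9.92 and 9.66 in 5-HT samples and 9.19, 8.84 and 8.49 in saline samples, with a log2 fold change of 0.91 (SE 0.38) and a tie between 5-HT replicate 2 and saline replicate 1. After quantile normalization it was 0.47 (unadjusted p = 0.0367 in limma), less than 1.5-fold. Rab32, a small GTPase of the same pathway, had separate groups at 12.31, 11.26, 11.36 and 11.36 in 5-HT samples and 11.15, 10.94 and 10.98 in saline samples. So did Bloc1s3, with a log2 fold change of 0.40 (SE 0.37). These were the 2 such genes of the 22, beside 6.28% of all tested genes. After quantile normalization Rab32 was at 0.08 and Bloc1s3 at 0.17. For Bloc1s3, Hps6 and Ap3b1 of this list the saline mean was below the limit, so that they were tested only through their 5-HT values.

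Endogenous inhibitors of cathepsins were tested for 7 of 9 measured genes, with a median log2 fold change of 0.49 (0.05 after quantile normalization). Stfa2, a stefin of myeloid cells, was the only one past both unadjusted thresholds (5.71% of all tested genes upwards). It had log2 signals of 11.62, 9.05, 10.21 and 8.39 in 5-HT samples and 9.06, 8.77 and 7.98 in saline samples. Its groups overlapped, and the log2 fold change was 1.21 (SE 0.54). After quantile normalization it was 0.80 (unadjusted p = 0.172 in limma), no longer past them.

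Markers of other marrow cells were few above the limit. Monocyte markers (3 of 9 measured), summed over all 9, were at 12.72 to 13.87 in 5-HT samples and 12.09 to 13.27 in saline samples. The 3 above the limit had a median log2 fold change of 0.08 (-0.40 after quantile normalization). Ly6c1 was past the unadjusted thresholds at 0.82 (SE 0.38), beside 5.71% of all tested genes upwards. After quantile normalization it was at 0.35 and not past them. F13a1 was at 0.08 (SE 0.60) and Ms4a6d at -0.10 (SE 0.58), and after quantile normalization at -0.44 and -0.40. Basophil and mast cell markers (3 of 9) summed to 12.02 to 13.77 in 5-HT samples and 11.72 to 12.58 in saline samples. For Mcpt8 and Prss34 of this list the saline mean was below the limit, so that they were tested only through their 5-HT values. Only 5-HT replicate 1 and saline replicate 1 reached the limit for either gene. Erythroid markers (4 of 6), summed over all 6, were at 12.76 to 14.87 in 5-HT samples and 14.31 to 14.93 in saline samples. Slc4a1 was past the thresholds downwards after quantile normalization (-0.67), beside 1.69% of all tested genes then, and not on the deposited values (-0.27). B lineage markers (3 of 7), summed over all 7, were at 12.57 to 14.07 in 5-HT samples and 11.99 to 13.51 in saline samples.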
